A study of Mus musculus with 30 samples.

Results

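In 2170 stretches of the mouse genome, the H3K18ac peak lists of Crebbp-null lymphoproliferative disease (LPD) held a peak where no acetylation had been called in wild-type B cells and no other acetylation mark was called in the LPD. The regions were chosen from the peak lists themselves. All 12 acetylation lists of the B cells and the LPD were merged into 50044 regions. A region was taken where both LPD lists of H3K18ac had a peak of at least 1 bp in it, neither B cell list of H3K18ac had one, and none of the 8 lists of H3K27ac and H3K56ac had one. The 2170 regions made up 4.34% of the merged regions. They covered 1.05 Mb, and all 2170 are accounted for below, with no filter on low values.

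The study deposited ChIP-seq peak lists for 15 of its 30 samples. The wild-type group was B220+ B cells sorted by flow cytometry from the spleen of C57BL/6 mice with floxed Crebbp alleles and no Cre (CBPfl/fl:Mx-Cre-), with 2 lists for each mark. The LPD group was bulk splenocytes of diseased C57BL/6 mice with the same floxed alleles and the Cre (CBPfl/fl:Mx-Cre+, Crebbp-/-), also with 2 lists for each mark. Mx-Cre is expressed from an interferon-inducible promoter, so it is not limited to B cells. The LPD tissue was not sorted, and genotype, disease and sorting differ between the groups at once, so their parts cannot be told apart. Replicates 1 and 2 are separate libraries, and the labels do not say whether they came from separate mice. The labels used here give no age. Lymphoid progenitors (Lin- IL7ra+) of both genotypes had a single list of H3K27ac for each genotype, and CBP had 1 list, from the wild-type B cells. The input and the RNA-seq samples were not analysed here.

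Acetylation of lysines in the tail and core of histone H3 marks active promoters and enhancers. CBP, the product of Crebbp, and its close relative encoded by Ep300 are the acetyltransferases that place most H3K27ac and H3K18ac, and they also acetylate H3K56. The marks usually lie together at the same element. In B cells Crebbp is known as a gene that is recurrently mutated in lymphoma.

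Few of the regions lay over a gene's start, and those that did show what the sequence under such a region can look like. A RefSeq promoter window (GRCm38.p6, the assembly that mm10 is drawn from) spans 250 bases before to 50 bases after an annotated start. In 8 protein-coding genes a window lay wholly inside a region. The 250 bases before the start are shown for 4 of them, chosen to span a wide range of base composition and of distance to other acetylation. They are written 5′ to 3′ on the gene's strand, and capitals mark matches to an AP-1 (TGANTCA) or EBF (TCCCNNGGG) motif on either strand, with overlapping matches joined.
Met: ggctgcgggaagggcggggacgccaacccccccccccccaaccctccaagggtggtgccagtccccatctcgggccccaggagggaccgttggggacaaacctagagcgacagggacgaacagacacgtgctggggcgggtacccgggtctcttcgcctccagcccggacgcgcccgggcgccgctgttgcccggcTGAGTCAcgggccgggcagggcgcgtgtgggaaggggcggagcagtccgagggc
Ccl17: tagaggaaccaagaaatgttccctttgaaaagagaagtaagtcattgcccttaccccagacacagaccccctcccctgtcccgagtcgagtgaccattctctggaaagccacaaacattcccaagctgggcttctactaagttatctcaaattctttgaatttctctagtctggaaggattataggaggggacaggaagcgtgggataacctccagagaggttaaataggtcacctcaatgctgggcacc
Cdhr5: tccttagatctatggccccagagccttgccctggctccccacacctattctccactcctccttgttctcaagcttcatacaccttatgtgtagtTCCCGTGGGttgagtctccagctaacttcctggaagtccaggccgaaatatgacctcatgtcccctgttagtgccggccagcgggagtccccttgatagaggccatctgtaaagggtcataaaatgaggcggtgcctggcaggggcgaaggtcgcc
Slc9a3r2: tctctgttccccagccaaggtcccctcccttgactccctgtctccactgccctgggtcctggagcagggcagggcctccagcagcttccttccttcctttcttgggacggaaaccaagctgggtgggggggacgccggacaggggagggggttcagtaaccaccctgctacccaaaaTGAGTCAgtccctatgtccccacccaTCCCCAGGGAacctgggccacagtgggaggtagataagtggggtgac

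Met encodes the receptor of hepatocyte growth factor. Its upstream sequence (chr6:17463707-17463956, plus strand) was 74% G or C and had 24 CpG. The region over it was 737 bp wide and lay 76948 bp from the nearest H3K27ac or H3K56ac peak of any list. LPD list 1 covered 737 bp of it and LPD list 2 covered 238 bp. Ccl17 encodes a chemokine that attracts T cells through the receptor CCR4. Its upstream sequence (chr8:94810203-94810452, plus strand) was 47.6% G or C, and the 791 bp region over it had another mark within 452 bp. Cdhr5, a cadherin-family gene (chr7:141276787-141277036, minus strand), held 1 EBF motif and lay under a 420 bp region. Slc9a3r2, which encodes a scaffold protein of membrane transporters (chr17:24644958-24645207, minus strand), held AP-1 and EBF motifs and lay under a 550 bp region. The windows of 1190005I06Rik, Arhgef16, Igfals and Kif3c were also wholly inside a region. Their upstream sequences, not shown, held no AP-1 or EBF motif. A motif match is a description of the letters and not a site of binding.

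The regions also overlapped 4 of the 1005 miRNA hairpins in the RefSeq table, and the number over all merged regions is not given here. The mature forms listed for these hairpins in the table are shown to identify them, with the seed, bases 2 to 8, in capitals.
miR-210-3p: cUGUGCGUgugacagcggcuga
miR-210-5p: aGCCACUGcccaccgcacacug
miR-138-2-3p: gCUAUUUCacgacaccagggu
miR-7053-3p: cUCCUGUGucuccuuccccag
miR-7053-5p: uGGGGAAAggcaggcuacugg
miR-7016-3p: aCCUGCCUccugcucuccccag
miR-7016-5p: cAGGGAGGggagcgagaguag

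No 2 of these seeds were the same. Mir210, best known as a miRNA induced by low oxygen, lay within a 540 bp region (chr7:141221215-141221754), of which LPD list 1 covered 540 bp and LPD list 2 covered 405 bp. The nearest peak of another mark was 310 bp away. Mir138-2 was overlapped only in part, so that the seed of its mature form lies outside the region, by a 492 bp region inside Nup93 (chr8:94324369-94324860), 19867 bp from the nearest H3K27ac or H3K56ac. Mir7053 lay in a 1116 bp region inside Pold1 (chr7:44537905-44539020), and Mir7016 in a 569 bp region inside Tmem39b (chr4:129684136-129684704). The lists hold acetylation only, and the level of the miRNAs was not measured in the files used here.

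The 2 LPD lists of H3K18ac were the longest of the 12, with 39529 and 35247 peaks against 22485 and 23456 in the B cells. The remaining lists held 18763 to 31924 peaks. No list gives read depth or peak height, so the number of peaks and the length they cover are the only measures of how much was called. H3K27ac was called at 6 of 6 B cell marker genes in each B cell list and each LPD list, so the B lineage markers were present in both groups. Of 7 T and NK cell markers 1 had H3K27ac in each of those 4 lists, and of 7 myeloid markers 1 or 2 had it. Of 7 erythroid and megakaryocyte markers 1 had it in the B cell lists, 3 in LPD list 1 and 1 in LPD list 2. Of 4 stromal markers 2 had it in each B cell list and 3 in each LPD list. In bulk tissue a different number of cells of a type and a different amount of a mark per cell cannot be told apart, and the part of other cell types in the regions was not tested.

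Under the rule as given, H3K18ac had the most regions gained by itself among the 3 marks. The same rule gave 280 regions for H3K27ac and 98 for H3K56ac. In the reverse direction, peaks of 1 mark alone in both B cell lists and in no LPD list, H3K18ac gave 233 regions, H3K27ac 2862 and H3K56ac 62. H3K18ac was gained with or without other marks in 9978 regions, 19.9% of the merged regions. Among them 21.7% were the lone gains, 16.1% also held H3K27ac only, 5.69% also held H3K56ac only, and 56.4% held both. These counts follow from the rule and are given with no test. The lists differ in length between marks and groups, and the marks were not compared with lists of equal length.

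The count of 2170 depended on how long the lists were and how far peaks were joined. It was 690 when each list was shortened to its widest peaks so that all 12 were equally long, 835 with peaks of 500 bp or more only, and 1250 with peaks up to 500 bp apart joined. It was 3945 without LPD list 1 of H3K18ac and 6267 without LPD list 2, since a peak in 1 list then sufficed.

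The regions were narrow. Their widths ran from 211 to 2245 bp, with a median of 430 bp and quartiles of 336 and 569 bp. Regions where H3K18ac was gained together with another mark had a median of 775 bp, and regions where H3K18ac was present in all 4 lists (called kept below) had a median of 1443 bp. The rule itself favours narrow regions, because a wider one has more room for a peak of another list. A width of 500 bp was reached by 769 of the lone gains (35.4%), and 1000 bp by 66 (3.04%).

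**Figure D1:**
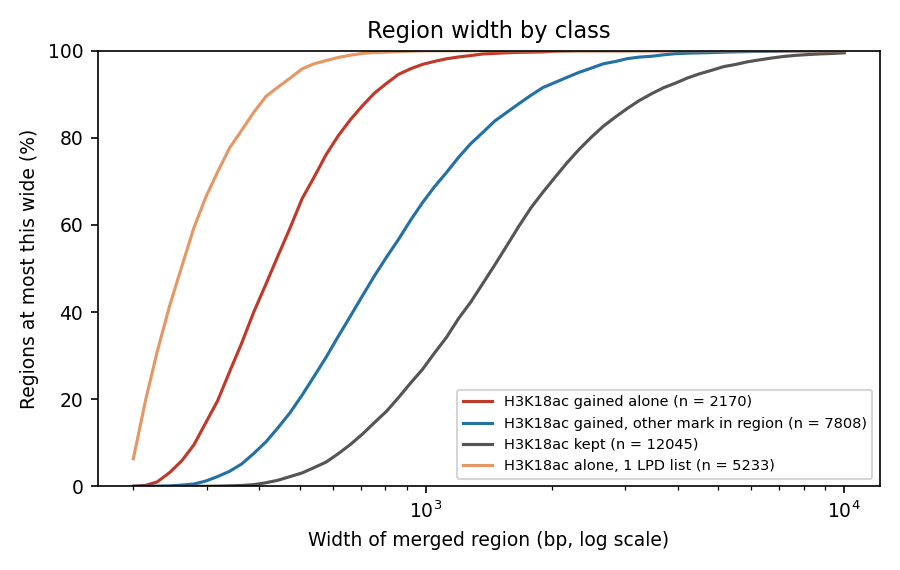
Cumulative share of merged regions (vertical axis, percent) at or below a given width (horizontal axis, bp, log scale) for 4 classes of region, with the number of regions in the key. The curve of the lone gains, median 430 bp, lies between that of regions with H3K18ac alone in a single LPD list, median 260 bp, and that of gains with another mark, median 775 bp.

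The LPD peaks inside the regions were small ones of their lists. LPD list 1 had 2216 of its peaks in them (5.61% of the list), with a median width of 377 bp against 499 bp over the whole list. LPD list 2 had 2244 (6.37%), with a median of 288 bp against 435 bp, where the narrowest peak of any list is 200 bp. In all 2170 regions the peaks of the 2 lists overlapped each other, by a median of 261 bp. List 1 covered a median of 98.1% of a region and list 2 75.4%. List 1 covered more than list 2 in 1593 regions (73.4%) and less in 564. Across the regions the lengths covered by the 2 lists had a Pearson r of 0.625, given as a description over regions that share 2 libraries. A further 5233 regions met the rule in only 1 LPD list, 3946 of them in list 1 and 1287 in list 2.

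At the edge of the rule, a peak of another mark a few bases nearer would have removed a region. The nearest case was a 338 bp region by Cxxc5 on chromosome 18, 1 bp from another mark. A 284 bp region by Rftn1 (chr17:50035925-50036208) lay 2 bp from one and a 449 bp region by Atf3 12 bp from one. Just outside, a region of 689 bp by Fasl held 200 bp of another mark, as did regions of 352 bp by Uck2 and 379 bp by Kctd3.

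The regions lay away from the ends of genes. Places are given relative to the spans of 21887 protein-coding genes, and a gene end is either the start or the end of the span, since the gene table carries no strand or exons. Of the 2170 regions 136 were within 1 kb of a gene end, which is 6.27% (95% exact binomial interval 5.28 to 7.37). The share was 18.5% (17.6 to 19.4) in gains with another mark and 57.6% (56.7 to 58.5) in kept regions. Inside a gene were 1036 of the lone gains, 47.7% (45.6 to 49.9), against 66.6% (65.6 to 67.7) and 76.5% (75.7 to 77.2). Outside every protein-coding gene and over 50 kb from the nearest gene end were 350, 16.1% (14.6 to 17.7), against 8.02% (7.42 to 8.64) and 4.53% (4.17 to 4.92). Over all merged regions the 3 shares were 26.99%, 67.47% and 7.56%. In each of the 3 measures the interval of the lone gains was separate from the other 2. The lone gains lack H3K27ac and H3K56ac by rule, and the other 2 classes were not held to this. The separate intervals therefore compare classes set by different rules, and the part of the rule in these shares was not tested. The intervals cover counting error only, regions of the same libraries are not replicates, and no test over samples fits this comparison. The regions that met the rule in only 1 LPD list gave shares of 6.44%, 51.8% and 14.9%. Wider regions reach a gene end more easily, and with peaks of 500 bp or more only the share at gene ends was 5.15%.

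**Figure D2:**
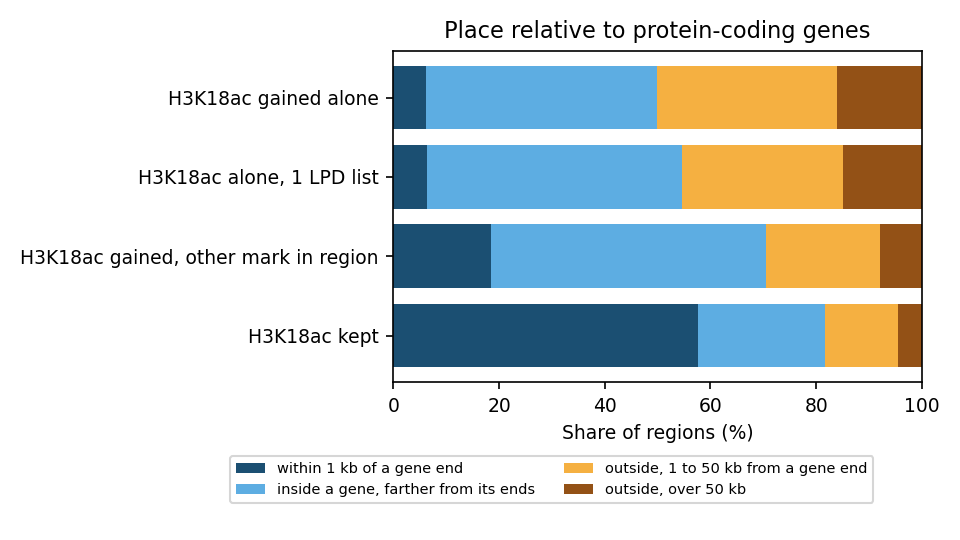
Share of regions (horizontal axis, percent) in 4 places relative to protein-coding genes, 1 bar for each class of region. The part within 1 kb of a gene end is 6.27% in the lone gains and 57.6% in kept regions, and the part over 50 kb from any gene is 16.1% and 4.53%.

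The 1134 regions outside genes lay a median of 24097 bp from the nearest gene end, with quartiles of 8013 and 69606 bp. Of these, 280 (24.7%) overlapped an annotated long non-coding RNA gene, a share that was not counted for the other classes or all merged regions. Over 100 kb from any gene end were 200 regions, 9.22% of all. The 1036 regions inside genes lay a median of 19349 bp from an end of a gene. They were in 746 genes with a median length of 74.6 kb, against 17.2 kb over all protein-coding genes. Long genes offer more room for a region, and the part of length in this was not tested. Exon, intron and UTR were not assigned.

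Although the rule kept other marks out of the regions, other marks were often close by. The nearest H3K27ac or H3K56ac peak of any list was a median of 2539.5 bp away. It was within 1 kb for 852 regions (39.3%), within 10 kb for 1513 (69.7%) and over 100 kb away for 62 (2.86%). The peaks nearby were those of the LPD more than those of the B cells. The median distance to H3K27ac was 18647.5 and 19037.5 bp in the B cell lists, against 5117.5 and 10240.5 bp in the LPD lists. For H3K56ac it was 28211 and 32403 bp in the B cell lists, against 6861 and 6180.5 bp in the LPD lists. Both LPD lists lay nearer than both B cell lists for each mark. H3K18ac of the B cells was a median of 21512 and 20360 bp away. Regions that met the rule in only 1 LPD list showed the same order of groups. From them H3K27ac was a median of 13276 and 13877 bp away in the B cell lists, against 4286 and 7766 bp in the LPD lists. For H3K56ac the medians were 21364 and 23998 bp against 6716 and 6127 bp.

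The 10 kb on either side of the regions, with the regions themselves left out, added up to 35.7 Mb. In these flanks H3K27ac peaks covered 1.34 ± 0.0307 Mb in the B cell lists and 1.67 ± 0.435 Mb in the LPD lists (mean ± SD, n = 2 lists each). The ratio of LPD to B cells was 1.24 in the flanks and 0.829 over the whole lists. H3K56ac covered 0.425 ± 0.0404 Mb and 1.40 ± 0.0645 Mb, a ratio of 3.29 against 1.77 over the whole lists. H3K18ac covered 0.790 ± 0.0144 Mb and 2.77 ± 0.482 Mb, a ratio of 3.51 against 1.86. For each mark the ratio near the regions was higher than over the whole lists. For H3K56ac and H3K18ac the 2 LPD lists were above the 2 B cell lists, while for H3K27ac LPD list 2 lay at 1.36 Mb beside 1.36 and 1.32 Mb in the B cells. The flanks come from the comparison that chose the regions, so these values are a description with no test, and with 2 lists a group an exact permutation test could give no p below 0.333.

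Gains with another mark lay closer than kept regions. A region with H3K18ac gained together with another mark lay within 10 kb of 1038 of the lone gains (47.8%), at a median distance of 11943 bp, and a kept region within 10 kb of 667 (30.7%), at 26639.5 bp. From kept regions, 23.8% had a gain with another mark within 10 kb. Regions that met the rule in only 1 LPD list were close to the lone gains in this, with 45.4% within 10 kb of a gain with another mark.

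Most of the regions stood by themselves. A run was taken as 3 or more of them with gaps of at most 25 kb. There were 103 runs with 389 regions, 17.9% of all (16.3 to 19.6), and 1209 regions (55.7%) had no other within 25 kb. Of the runs, 63 held 3 regions, 25 held 4, 5 held 5, 8 held 6, and 2 held more. In 69 of the 103 runs a gain with another mark lay between the first and the last region. The share in runs was 43.5% for gains with another mark and 36.5% for kept regions, but those classes have more regions, so the shares are not on equal terms. The share in runs was 9.22% with gaps of at most 10 kb and 27.9% with gaps of at most 50 kb. It was 5.36% where peaks up to 500 bp apart were joined, 9.15% with other acetylation at least 1000 bp away, and 4.49% with lists of equal length. Without LPD list 1 of H3K18ac it was 41.2% and without LPD list 2 it was 36.9%.

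The longest run lay between Cryaa and Sik1 (chr17:31680476-31829833). Sik1 encodes a salt-inducible kinase that phosphorylates the CRTC coactivators of CREB, the factor after which CBP is named, and Cryaa encodes a crystallin of the eye lens. The run held 17 regions over 149 kb, 267 to 1308 bp wide, and they covered 11.3 kb. Over the same span H3K18ac peaks covered 10.5 and 12.04 kb in the B cell lists and 57.5 and 57.4 kb in the LPD lists. H3K27ac covered 12.1 and 10.9 kb in the B cell lists and 25.3 and 22.8 kb in the LPD lists. H3K56ac covered 3.36 and 3.21 kb, against 22.8 and 22.9 kb. Both LPD lists were above both B cell lists for each mark. The span also held 15 gains with another mark and 11 kept regions, so the lone gains lay between peaks that carried several marks. The widest, at 1308 bp, overlapped Cryaa (chr17:31680476-31681783), and the 4 nearest to Sik1 lay 14415 to 49375 bp from it.

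**Figure D3:**
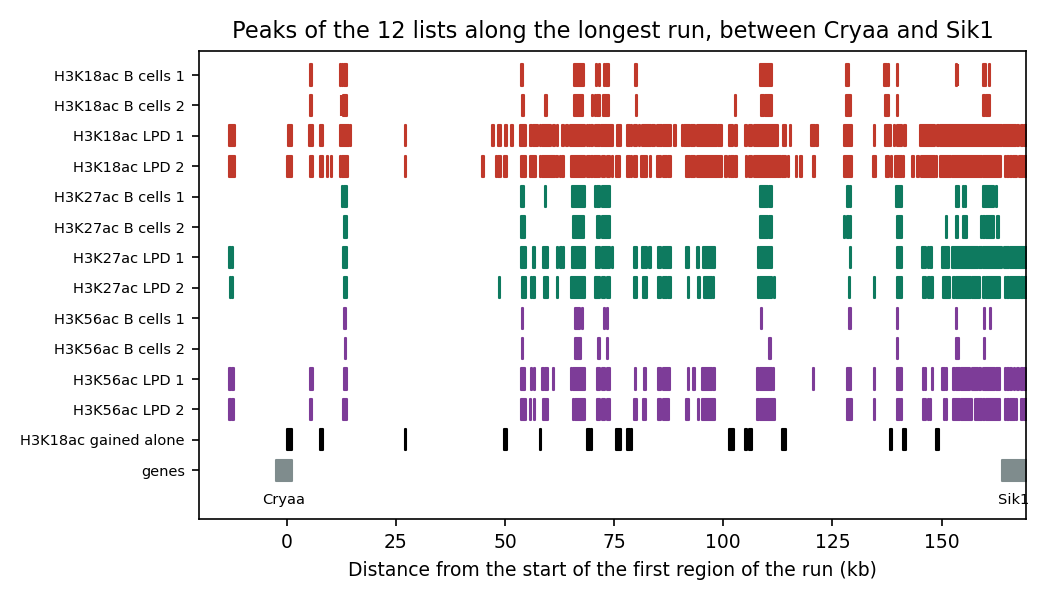
Peaks of the 12 lists, the lone H3K18ac gains and the 2 protein-coding genes along the run between Cryaa and Sik1, each box drawn from the start to the end of a peak, with the distance from the start of the first region in kb. The 17 lone gains fall between stretches where the LPD lists of all 3 marks have peaks.

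The second run, of 10 regions, lay 23669 to 49426 bp from Col4a1 (chr8:11148513-11174754). Col4a1 encodes a collagen IV chain of basement membranes. In this span of 26.2 kb the B cell lists had no H3K18ac and no H3K56ac, and H3K27ac covered 0.741 and 0.443 kb. In the LPD lists H3K18ac covered 11.7 and 10.1 kb, H3K56ac 2.26 and 2.32 kb, and H3K27ac 1.87 and 1.03 kb. The 10 regions, chosen for H3K18ac without the other marks, made up 4.98 kb of the span. The third run held 6 regions with Tomm20 as their nearest gene, a receptor of mitochondrial protein import (chr8:126871483-126902049). H3K18ac covered 0.980 and 0.933 kb of it in the B cell lists and 12.8 and 13.1 kb in the LPD lists. The fourth held 6 regions between Nol10 and Odc1, the gene of ornithine decarboxylase, which starts polyamine synthesis (chr12:17471218-17510935). H3K18ac there covered 0.910 and 0.690 kb, against 8.60 and 9.55 kb. The fifth held 6 regions by Ankrd55 (chr13:112347364-112367746), with H3K18ac over 1.43 and 1.19 kb in the B cell lists and 12.5 and 9.81 kb in the LPD lists. The longer H3K18ac of the LPD lists in these spans follows from how the regions were chosen.

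The regions were not spread evenly over the chromosomes. Per chromosome they made up 2.61% to 6.89% of the merged regions of an autosome, with a median of 4.26% over 19 autosomes. The highest shares were on chromosome 15, with 190 regions or 6.89% (5.97 to 7.90), chromosome 17, with 188 or 6.56% (5.68 to 7.53), chromosome 12, with 137 or 6.53%, and chromosome 8, with 141 or 5.95%. Chromosome 3 had 2.61%, and the X chromosome 13 regions or 1.52%. Gains with another mark were also most frequent on chromosomes 15 and 17, at 24.95% and 21.2% of the merged regions, against 11.9% to 17.6% on the remaining autosomes. These 2 chromosomes, singled out after their values were seen, also had more LPD peaks in all 3 marks. On chromosome 15 the ratio of LPD to B cell peaks was 1.29 for H3K27ac, 2.35 for H3K18ac and 2.18 for H3K56ac. On chromosome 17 these ratios were 1.21, 2.06 and 1.89. On the other 17 autosomes they ran from 0.814 to 1.09, from 1.34 to 1.73 and from 1.21 to 1.52. Chromosome 12 had the highest ratio of these 17 for H3K27ac, 1.09, and for H3K56ac, 1.52. The Y chromosome had 4 to 6 peaks in each B cell list and 0 in each LPD list. Whether the sex of the animals differed between the groups was not tested. Chromosomes 15 and 17 held 378 of the regions (17.4%) and 25 of the 103 runs, and without them the share in runs was 16.2%. The part of these differences between chromosomes in the regions was not tested.

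**Figure D4:**
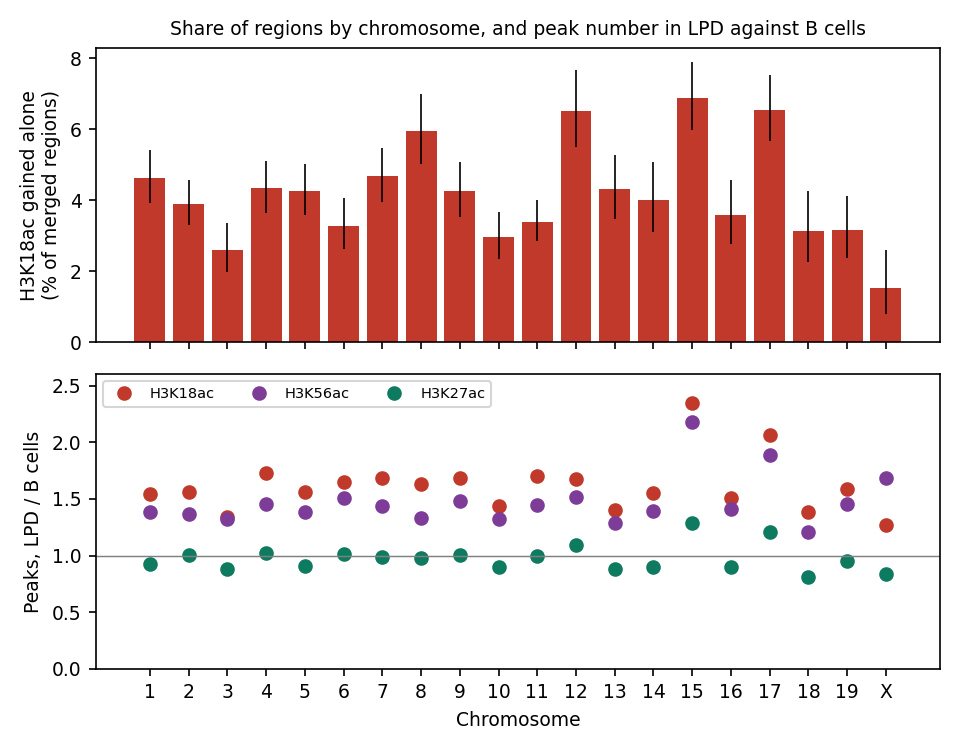
Upper panel, lone H3K18ac gains as a percent of the merged regions of each chromosome, with 95% exact binomial intervals (counting error only). Lower panel, the mean number of peaks in the 2 LPD lists divided by that in the 2 B cell lists for each mark. Chromosomes 15 and 17 are highest in the lower panel for H3K18ac, at 2.35 and 2.06, and for H3K56ac and H3K27ac as well.

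A region was assigned to each protein-coding gene that it overlapped, or else to the nearest one within 50 kb. In this way 1820 regions (83.9%) were assigned to 1249 genes, 5.71% of the protein-coding genes, and 350 were assigned to none. The number of genes was 468 with lists of equal length, 560 with peaks of 500 bp or more only and 2825 without LPD list 2 of H3K18ac. Of the genes, 896 had 1 region, 236 had 2 and 117 had 3 or more. Gains with another mark were assigned to 17.01% of all genes and to 806 (64.5%) of the 1249. Both kinds of region are set by the same lists, so this is a description.

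Under the rule as given, Ncald, which encodes a neuronal calcium sensor, had the most regions (chr15:37366175-37792519). Its 11 regions were all inside the gene and at most 459 bp wide. Over the gene H3K18ac covered 5.51 and 5.98 kb in the B cell lists and 29.3 and 26.3 kb in the LPD lists. H3K27ac covered 6.61 and 5.27 kb against 15.3 and 12.1 kb, and H3K56ac 2.95 and 2.26 kb against 13.4 and 13.1 kb. All 3 marks were thus longer in both LPD lists, and 10 gains with another mark were assigned to the gene. Gsg1l, which encodes an auxiliary subunit of AMPA receptors, had 9 regions, all inside (chr7:125878412-126082757). H3K18ac covered 0.580 and 0.441 kb of it in the B cell lists and 7.46 and 5.68 kb in the LPD lists. No B cell list had H3K27ac or H3K56ac there.

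Col4a1 had 10 regions, all outside the gene. Over the gene and its regions H3K18ac covered 1.90 and 2.05 kb in the B cell lists and 13.9 and 13.1 kb in the LPD lists. H3K27ac went the other way, with 2.90 and 2.99 kb in the B cell lists and 1.87 and 1.03 kb in the LPD lists. Ptpn14, which encodes a tyrosine phosphatase, showed the same order of groups (chr1:189728216-189876695). Its 7 regions lay inside the gene, H3K18ac covered 2.46 and 1.36 kb against 9.76 and 7.87 kb, and H3K27ac covered 3.28 and 3.21 kb against 2.53 and 0.651 kb.

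Azin1, which encodes an inhibitor of antizyme and so acts on the same polyamine pathway as Odc1, had 8 regions outside the gene. H3K18ac covered 3.02 and 3.19 kb in the B cell lists and 14.9 and 15.1 kb in the LPD lists. Ankrd55 had 8 regions, 7 of them inside, with 2.14 and 1.42 kb against 25.2 and 17.7 kb. Hivep3, which encodes a large zinc finger protein, had 7 regions that together were the longest of any gene, 5.23 kb, with H3K18ac at 5.70 and 6.93 kb against 17.5 and 15.4 kb. Its H3K27ac did not separate the groups, with 5.58 and 6.10 kb in the B cell lists and 6.53 and 4.59 kb in the LPD lists. Gas7 had 7 regions, all inside, with 3.46 and 3.32 kb against 17.4 and 11.8 kb. Adtrp had 7, with 2.79 and 3.26 kb against 16.4 and 12.3 kb. Rftn1, which encodes the lipid raft protein raftlin of B cells, had 7 regions amid 28 gains with another mark, and H3K18ac covered 15.7 and 17.5 kb against 76.2 and 70.8 kb. Prkce, which encodes a protein kinase C, also had 7 regions, and came after these genes because ties were ordered by bases.

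These counts and their order moved with the lists. With lists of equal length Rftn1 had 4 regions and Ncald, Ankrd55 and Hivep3 had 3 each, while Azin1 and Ptpn14 had 0, and Azin1 also had 0 with peaks of 500 bp or more only. With no other acetylation within 1000 bp Col4a1 had 8 and Ncald 6. Without LPD list 1 of H3K18ac Ncald had 20, Rftn1 19, Azin1 17, Ankrd55 16, Hivep3 15 and Prkce 11. Without LPD list 2 Prkce had 20, Ncald 18, Ankrd55 and Rftn1 17 each, Adtrp 14, Gas7 13 and Ptpn14 12, and without LPD list 1 of H3K27ac Rftn1 had 14.

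**Figure D5:**
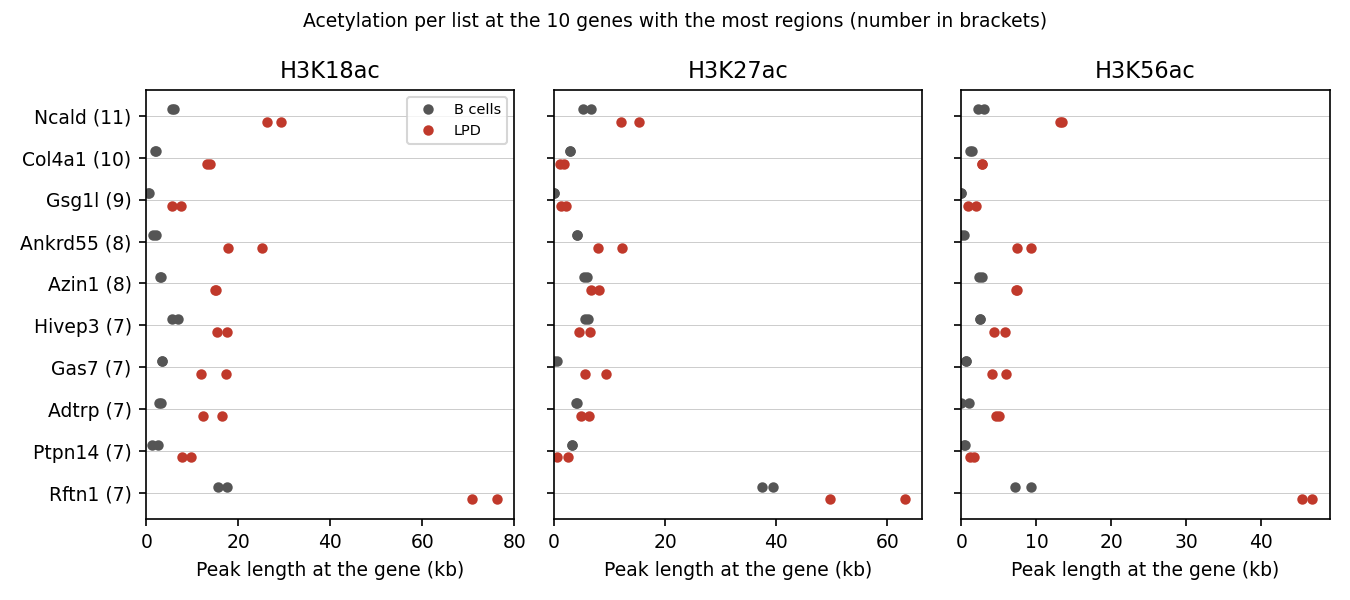
Length covered by peaks (kb) over the gene and its regions in each list, for the 10 genes with the most lone H3K18ac gains (number in brackets), with a panel for each mark and a point for each list. H3K18ac is longer in both LPD lists at every one of the 10 genes, as the rule favours, while H3K27ac overlaps between the groups at Hivep3 and is longer in the B cells at Col4a1 and Ptpn14.

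By length, Ptprn2 and Rbm47 joined these genes. Ptprn2, which encodes a phosphatase-like protein of secretory granules, had 5 regions over 3.64 kb, and no B cell list had any of the 3 marks there. H3K18ac covered 10.2 and 7.35 kb in the LPD lists. Rbm47, which encodes an RNA-binding protein, had 6 regions over 3.52 kb. H3K27ac there covered 4.62 and 3.65 kb in the B cell lists and 27.5 and 20.8 kb in the LPD lists, the widest gap in that mark among the genes named by count or length.

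The widest region, 2245 bp, lay inside Efcc1 (chr6:87748876-87751120), with 2105 bp covered by LPD list 1 and 2049 bp by list 2. No B cell list had any of the 3 marks over Efcc1. The next, 2039 bp, lay 8603 bp from Ccr9, which encodes a chemokine receptor of gut-homing lymphocytes (chr9:123756570-123758608), and had another mark 169 bp away. A 1961 bp region lay 21920 bp from Pck1, a gene of glucose synthesis (chr2:173181194-173183154). A 1959 bp region lay 7420 bp from Trim62 (chr4:128874666-128876624), and it was the only acetylation of any of the 12 lists over that gene and region. Its 2 LPD lists differed, with 1954 bp in list 1 and 812 bp in list 2. A 1875 bp region lay inside Rictor, which encodes a subunit of the mTORC2 kinase complex (chr15:6772580-6774454), 63527 bp from any other mark. A 1747 bp region had Runx1, a master regulator of blood formation, as its nearest gene at a distance of 190367 bp (chr16:93016441-93018187). The widest 10 also included a 2014 bp region with Sdk2 as its nearest gene, 59877 bp away. The others lay inside Hivep3 and Nsmce2 and by Fer1l6, with 1980, 1596 and 1569 bp.

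In lists of genes drawn up by function, 27 of 280 different genes (9.64%) had a region, beside 5.71% of all protein-coding genes. Gains with another mark were assigned to 72.2% of the B cell receptor, 64% of the lymphoma and 60% of the B cell identity genes. Their share of all genes was 17.01%. They were less frequent in the early B cell (14.3%), stem and progenitor (13.3%), T and NK cell (16.7%) and neuronal (0%) lists. In the remaining lists their share was 20% to 39.1%. For the lone gains, the B cell receptor signalling list had 5 of 18, among them Nfatc1, Vav1, Cd22 and Prkcb. Nfatc1, a calcium-regulated transcription factor, had 2 regions, and there all marks were longer in the LPD, with H3K18ac at 14.8 and 15.2 kb in the B cell lists against 65.3 and 58.8 kb in the LPD lists. Vav1, a signalling protein of lymphocytes, had 1 region inside the gene. H3K18ac over Vav1 covered 1.26 and 1.87 kb in the B cell lists and 4.10 and 3.44 kb in the LPD lists. H3K27ac there went the other way, with 6.06 and 5.64 kb against 4.82 and 3.46 kb.

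The list of lymphoma oncogenes and suppressors had 5 of 25, namely Myc, Pim1, Tet2, Ccnd2 and Notch1. Myc had 2 regions about 35 kb from the gene, at 34994 and 35559 bp. H3K18ac over the locus covered 3.96 and 3.97 kb in the B cell lists and 9.46 and 7.65 kb in the LPD lists. Ccnd2, which encodes the D-type cyclin of B cell division, had 1 region of 682 bp, with H3K18ac at 3.36 and 2.26 kb against 9.58 and 8.39 kb. Pim1, a kinase gene, had 2 regions, with 3.32 and 2.62 kb against 12.7 and 11.5 kb. At Myc, Ccnd2 and Pim1, H3K27ac and H3K56ac were also longer in both LPD lists than in both B cell lists. At Ccnd2, H3K27ac covered 1.76 and 1.35 kb in the B cell lists and 7.97 and 5.90 kb in the LPD lists. Tet2, which encodes an enzyme that oxidises 5-methylcytosine, had 2 regions outside the gene and little difference in H3K27ac, at 2.16 and 2.14 kb against 2.16 and 2.07 kb. The loci are named because they hold such a region, so the longer H3K18ac of the LPD lists is partly set by the rule.

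The germinal centre and plasma cell list had 3 of 15, namely Irf8, Xbp1 and Fas. Irf8, a transcription factor gene of B and myeloid cells, had 2 regions 17458 and 18511 bp from the gene. H3K27ac over the locus covered 17.4 and 17.8 kb in the B cell lists and 4.20 and 1.97 kb in the LPD lists, and H3K56ac 4.87 and 5.11 kb against 2.05 and 1.65 kb. H3K18ac overlapped between the groups, at 6.23 and 6.51 kb against 6.26 and 5.22 kb. The lone gains at Irf8 thus stood beside shorter H3K27ac and H3K56ac and about equally long H3K18ac. Xbp1, which encodes a factor of plasma cell secretion, had 2 regions, and Fas, a death receptor gene, had 1 of 699 bp.

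Of 20 B cell identity genes, Pou2af1 and Cd22 had a region. Cd22 encodes an inhibitory co-receptor, and its single region of 365 bp lay 2493 bp outside the gene. Over the gene and this region no B cell list had H3K18ac, and the LPD lists had 6.84 and 5.15 kb. The other marks were longer in the LPD as well. H3K27ac covered 2.705 and 1.89 kb in the B cell lists and 8.11 and 7.31 kb in the LPD lists. H3K56ac covered none in the B cell lists and 3.725 and 4.17 kb in the LPD lists, and 4 gains with another mark were assigned to the gene. The early B cell list had Erg alone among 14 genes. Erg, a transcription factor gene of stem and progenitor cells, had 2 regions in 1.495 kb, and over its locus H3K27ac covered 1.93 and 1.69 kb in the B cell lists and none in the LPD lists. Of 15 stem and progenitor genes, Lmo2 had a region.

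Of 18 T and NK cell genes 3 had a region, namely Tcf7, Klrb1c and Lck. The 547 bp region by Klrb1c, a receptor gene of NK cells, was the only acetylation of the 12 lists at that locus, with 0.547 and 0.274 kb in the LPD lists. Of 16 myeloid genes, Cebpa had 1 region of 325 bp, which likewise was the only acetylation at that locus. These genes belong to cell types that the unsorted LPD tissue could hold, and their part was not tested.

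The list of acetyltransferases and deacetylases had 3 of 23, among them the deacetylase genes Hdac4 and Hdac7. Hdac4 had 2 regions inside the gene, with H3K18ac at 1.18 and 1.59 kb in the B cell lists and 4.34 and 2.71 kb in the LPD lists. Hdac7 had 1 region inside, with 1.93 and 1.13 kb against 6.54 and 7.24 kb. The cAMP and immediate early list had 3 of 20, namely Sik1, Fos and Crtc1. Sik1 had 5 regions, and H3K18ac over its locus covered 6.30 and 7.94 kb in the B cell lists and 41.2 and 39.99 kb in the LPD lists. Fos, an AP-1 subunit gene, had 1 region, and its H3K18ac overlapped between the groups, at 4.27 and 3.54 kb against 4.96 and 3.68 kb. Crtc1 encodes one of the coactivators that Sik1 phosphorylates, and its region of 262 bp lay 117 bp from the gene. The NF-kB list had Nfkbia among 17 genes. No gene of 5 lists had a region, namely 14 erythroid and megakaryocyte, 21 cell division, 17 DNA damage, 18 neuronal and 15 housekeeping genes.

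H3K27ac of the progenitors was rare at the regions. The list of wild-type progenitors, with 17124 peaks, overlapped 46 of the 2170 (2.12%, 1.56 to 2.82), and that of Crebbp-/- progenitors, with 13125 peaks, overlapped 19 (0.876%, 0.528 to 1.36). In gains with another mark these shares were 12.2% and 7.63%, and in kept regions 73.4% and 62.9%. Over all merged regions they were 24.8% and 19.4%. Regions that met the rule in only 1 LPD list had 1.45% and 0.497%, below the lone gains. Both progenitor lists held a peak in 18 of the 2170 regions. The regions are narrow and by rule lack H3K27ac in the B cells and the LPD, and with peaks of 500 bp or more only the share for the wild type was 7.78%. The widest with a wild-type progenitor peak was 1341 bp, 45967 bp from Lipc, a lipase gene (chr9:70998188-70999528). The next widest, 1318 bp, had Sdk2 as its nearest gene at a distance of 180988 bp. Others lay in Rab7b (908 bp), in Fam207a (847 bp) and by 1600014C23Rik (845 bp). Those in Fam207a, by Zfp658, in Soga1, in Zmynd10 and 50949 bp from Mcfd2 were the widest that the Crebbp-/- progenitor list held. A region inside Notch1, the receptor gene of T cell fate (chr2:26486311-26486739), had a peak in both. Each genotype has a single progenitor list, so this comparison has no replicate check.

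CBP had no peak in any of the 2170 regions, which allows a share of up to 0.138%. The CBP list, from wild-type B cells, holds exactly 1000 peaks and may be a shortened list, in which case the limit concerns only the listed peaks. It overlapped 22 gains with another mark (0.282%), 738 kept regions (6.13%) and 898 of all merged regions (1.79%). None of the 5233 regions that met the rule in only 1 LPD list had a CBP peak either. Gains with another mark and kept regions were wider than the lone gains, and the part of width was not tested. Regions without acetylation in B cells are compared here with a factor list from B cells, and CBP in the LPD was not measured in the files used here.

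Promoter windows were overlapped by 64 of the regions (2.95%), which touched 72 windows of 67 genes, 36 of them protein-coding. The share over all merged regions is not given here, so 2.95% cannot be called low or high for acetylated regions. Besides the 8 genes above, the 67 genes included Fasl and Lat, both genes of T cell signalling. They also included Igf1r, which encodes a growth factor receptor, and Fkbp5, a glucocorticoid response gene. The window table holds 32851 windows of 27025 genes and none on chromosome 18. The overlapped windows had a median of 57.6% G or C and 5 CpG, against 52.4% and 6 over all windows. The EBF motif, named for a factor of B cell fate, was in 12 of the 72 (16.7%) against 5.60% of all windows. The octamer motif (ATGCAAAT) was in 3 (4.17%) against 1.60%, and AP-1 in 6 (8.33%) against 6.75%. The shares were 12.5% against 14.0% for RUNX (TGTGGT), 13.9% against 13.0% for the E-box (CAGCTG), 2.78% against 2.44% for PU.1 (GAGGAAGT) and 4.17% against 7.13% for IRF (GAAANNGAA). CRE (TGACGTCA) and NF-kB (GGANTTTCC) were in none of the 72, against 1.55% and 1.07% of all windows. These values are over the 250 bases before the start, searched on both strands. Some windows overlap each other, base composition differs between the sets, and no test was made.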

How the data were processed

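Histone acetylation and CBP were measured by ChIP-seq in mouse. The submitters' processing notes name MACS2 2.0.10, Bowtie2 2.1.0, bedtools and Picard, and the build mm10, while settings are not given in the sources used here. Each of the 15 deposited lists belongs to 1 library and holds chromosome, start and end of each peak, without any score, height or count, so the authors' deposited values are positions. Read depth is unknown, and peak number and covered length are given in its place.

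All further steps ran in Python 3.11.15 (SciPy 1.17.1, pandas 2.3.3, NumPy 2.4.6, Matplotlib 3.10.9). Overlapping or touching peaks of the 12 lists were merged, with 1 bp of overlap counting as presence of a list in a region. Genes, promoter windows and miRNAs come from RefSeq tables of GRCm38.p6. On simulated lists with 2423 planted regions, 2423 were recalled and no other was called. The planted peaks lay in separate regions with no stray peaks, so this result was set in advance. It checks the code only and not the calls in the real lists. Shares have 95% exact binomial (Clopper-Pearson) intervals, which cover counting error only, and the limit for a share of 0 is 3 counts of the total. No test over samples was fitted, because the regions were chosen by the contrast itself.

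The named genes are the 10 with the most regions, the 10 with the most bases in them, the nearest genes of the 10 widest regions and of the 5 longest runs, up to 5 for each progenitor or CBP list, and up to 4 for each functional list. Other names, such as Notch1, Fasl, Lat, Igf1r and Fkbp5, and the genes of single sequences were added after their values were seen. Some listed genes are counted but not reported by name here. The members and lists were chosen with earlier results of these data known. Alternatives were other merge distances, stricter overlap, peak width, lists of equal length, each list left out, and other gene and run distances.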

Additional observations from a re-analysis of the deposited data

How the results depend on the processing

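The count of 2170 regions, with a median width of 430 bp, became 1250 (551.5 bp) with peaks up to 500 bp apart joined and 1125 (631 bp) up to 1000 bp apart. It became 1279 with no other acetylation within 1000 bp, 835 (830 bp) with peaks of 500 bp or more only, and 690 (789.5 bp) with lists of equal length. Where both LPD lists had to cover at least 50% of a region the median width was 400 bp. The share at gene ends, 6.27%, was 5.15% with wide peaks only, 3.62% with lists of equal length, 18.8% with ends up to 5 kb away and 13.8% with all genes of the table. The share inside genes, 47.7%, was 51.4% with wide peaks only and 60.9% with all genes. The share in runs, 17.9%, was 5.36% and 3.47% at the 2 joining distances, 14.99% at 50% cover, 9.15% with no other acetylation within 1000 bp, 8.86% with wide peaks only, 4.49% with lists of equal length, 9.22% and 27.9% with gaps of 10 and 50 kb, and 16.2% without chromosomes 15 and 17, an alternative chosen after seeing the data. The median distance to another mark, 2539.5 bp, was 9359 and 11035 bp at the joining distances, 10069 bp with 1000 bp kept free, 10172 bp with wide peaks only and 6291 bp with lists of equal length. The share with a wild-type progenitor peak, 2.12%, was 7.78% with wide peaks only and 4.49% with lists of equal length. Of the listed genes, 27 with a region became 17 and 15 at the joining distances, 16 with 1000 bp kept free, 14 with wide peaks only and 12 with lists of equal length.

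Leaving out each of the 12 lists in turn gave 2173 to 6267 regions, median widths of 269 to 437 bp, 5.25% to 6.77% at gene ends, 47.3% to 50.9% inside genes, 17.8% to 41.2% in runs, median distances of 1566 to 3119 bp, 1.68% to 2.31% with a progenitor peak and 27 to 63 listed genes. The 2 LPD lists of H3K18ac gave the 2 highest counts, 3945 regions without list 1 and 6267 without list 2. No paired analysis was possible because no result comes from a test: the lengths per list are descriptions of regions chosen by the same contrast, and the labels do not say that a shared replicate number means a shared mouse. The causes of these changes were not tested. With no read depth or peak score in the lists, a missing peak shows only that none was called, and with 2 lists a group an exact permutation test cannot go below 0.333.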
